A study of Ovis aries with 12 samples.

Results

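The 6 genes described here were taken from the 25197 Ensembl sheep gene IDs counted in the series, by their place in the sorted IDs. In the vertebrate order of mitochondrial genes ENSOARG00000000016 stands at the place of COX1, ENSOARG00000000019 at that of COX2, ENSOARG00000000021 at that of ATP8, ENSOARG00000000022 at that of ATP6, ENSOARG00000000023 at that of COX3 and ENSOARG00000000035 at that of CYTB. No source used here pairs an Ensembl sheep ID with a name, so each identity is an inference from order, and "the COX1 position" below means the ID that stands at that place. The 12 libraries hold poly-A RNA of anterior mitral leaflets, from Dorset sheep that were adult. Of these, 3 were from animals before myocardial infarction (MI), 5 from animals 4 weeks after it and 4 from animals 8 weeks after it, and p-values measure the spread between these libraries. The infarction was made under thiopental and isoflurane anaesthesia by tying off obtuse marginal branches of the circumflex artery, which injures the back wall of the left ventricle. Ischemic mitral regurgitation (IMR), a leak of the valve after such an injury, was recorded by echocardiography, at a low grade, in 3 of 5 animals at 4 weeks and 2 of 4 at 8 weeks, and in no animal before MI. The leaflet is not the infarcted tissue, and the labels describe no sham-operated group.

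The mitochondrial genome encodes a small set of proteins of the respiratory chain, together with the ribosomal and transfer RNAs needed to make them. COX1, COX2 and COX3 are the core subunits of complex IV (cytochrome c oxidase), which passes electrons to oxygen; COX1 and COX2 hold its metal centres. CYTB is the mitochondrially encoded subunit of complex III, which passes electrons from ubiquinol to cytochrome c, and ATP6 and ATP8 are subunits of the membrane part of ATP synthase (complex V). The genes are transcribed in long precursors that are cut at the transfer RNAs, and most of the messengers receive a short poly-A tail, so poly-A selection retains them. Heart muscle is rich in these messengers, while the valve leaflet consists mainly of interstitial and endothelial cells.

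The order of the IDs was checked against the counts. The names table for sheep (RefSeq, assembly ARS-UI_Ramb_v3.0) lists 37 mitochondrial genes, and the first 37 sorted IDs were set beside them place by place. Of the 22 places that hold a transfer RNA in the table, 21 had 0 counts in all 12 libraries. Both ribosomal RNA places and all 13 protein-coding places had counts, but position 27, the ND4L place, had only 1 count in all. The transfer RNA place with counts was position 37, with 99 to 13901 per library. This pattern of empty and filled rows is a check of the order and not a proof of any single name. The marker genes that would test for cardiac muscle or other cells in the leaflet were not analysed here, because the IDs have no names.

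Depth was not limiting for 5 of the members. Library totals ran from 7768007 to 19175100 counts, and the 6 members together had 63249 to 1013800 counts per library, or 0.515% to 7.83% of the total. The first 37 IDs together took 0.928% to 11.3%. All 6 members passed the filter on low counts. The lowest count of any member other than the ATP8 position was 6153 in a library, whereas the ATP8 position had 5 to 780 counts.

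Levels are given as CPM, the count scaled to a common library size, with TMM factors (0.717 to 1.19), and are compared for a given ID between libraries, not between IDs, since no gene lengths were used. In bulk tissue, fewer cells of a type and less RNA per cell cannot be told apart.

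Before MI, the COX1 position had 17090.5 CPM in replicate 2, 5015 CPM in replicate 3 and 1735 CPM in replicate 4. At 4 weeks without IMR it had 3552 CPM in replicate 1 and 3652 CPM in replicate 5, and with IMR 2449, 4194 and 3964 CPM in replicates 2, 3 and 4. At 8 weeks without IMR it had 1881 CPM in replicate 3 and 46787 CPM in replicate 4, and with IMR 19918 CPM in replicate 1 and 4459 CPM in replicate 2. The level was therefore high in 3 libraries, 1 before MI and 2 at 8 weeks, one of the latter with and the other without IMR. The 5 libraries at 4 weeks lay within a 1.71-fold range, against 9.85-fold for the 3 before MI and 24.9-fold for the 4 at 8 weeks. All time groups overlapped.

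The other core subunits of complex IV followed the same order of libraries in outline. The COX2 position had 3314, 1033 and 422 CPM before MI in replicates 2, 3 and 4. At 4 weeks it had 720 and 743 CPM without IMR in replicates 1 and 5, and 755, 1204 and 842 CPM with IMR in replicates 2, 3 and 4. At 8 weeks it had 490 and 5309 CPM without IMR in replicates 3 and 4, and 3199 and 913 CPM with IMR in replicates 1 and 2. The highest library again was 8-week replicate 4 without IMR and the lowest pre-MI replicate 4. The COX3 position ran from 854 CPM in pre-MI replicate 4 to 13184 CPM in 8-week replicate 4 without IMR, with a median of 1913 CPM. Its group means were 3448 ± 3287 CPM before MI (SD, n = 3), 1810 ± 374 CPM at 4 weeks (SD, n = 5) and 5966 ± 5580 CPM at 8 weeks (SD, n = 4). The SD at 8 weeks and before MI was nearly as large as the mean.

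The CYTB position, the member for complex III, had 6027, 2326 and 842 CPM before MI in replicates 2, 3 and 4. At 4 weeks it had 1228 and 1752 CPM without IMR in replicates 1 and 5, and 1409, 2072 and 1561 CPM with IMR in replicates 2, 3 and 4. At 8 weeks it had 1206 and 12128 CPM without IMR in replicates 3 and 4, and 7597 and 1825 CPM with IMR in replicates 1 and 2. Its 3 high libraries were those of the COX1 position. The ATP6 position, for complex V, ran from 486 CPM in pre-MI replicate 4 to 7903 CPM in 8-week replicate 4 without IMR. Its means were 1875 ± 1680 CPM before MI (SD, n = 3), 1117 ± 227 CPM at 4 weeks (SD, n = 5) and 3750 ± 3482 CPM at 8 weeks (SD, n = 4).

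The ATP8 position behaved differently from the other 5. It had 780 counts (54.5 CPM) in pre-MI replicate 2, against 65 (3.18 CPM) and 33 (2.27 CPM) in pre-MI replicates 3 and 4. At 4 weeks it had 5 counts (0.562 CPM) and 17 counts (1.90 CPM) without IMR in replicates 1 and 5, and 60 (5.58 CPM), 134 (12.1 CPM) and 33 (1.66 CPM) with IMR in replicates 2, 3 and 4. At 8 weeks it had 76 (4.38 CPM) and 72 (6.06 CPM) without IMR in replicates 3 and 4, and 101 (7.97 CPM) and 52 (2.44 CPM) with IMR in replicates 1 and 2. The highest library, pre-MI replicate 2, was also high for the other members, but 8-week replicate 4 without IMR, the highest for each of the others, had less than pre-MI replicate 2, 4-week replicate 3 with IMR and 8-week replicate 1 with IMR. Counting error alone is wide at the low end: the exact 95% Poisson interval of the 5 counts is 1.62 to 11.7 and that of the 17 counts 9.90 to 27.2. ATP8 and ATP6 overlap in the names table, and how the authors' counting treated reads in overlapping genes is not stated, so the counts of both positions are uncertain.

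**Figure D1:**
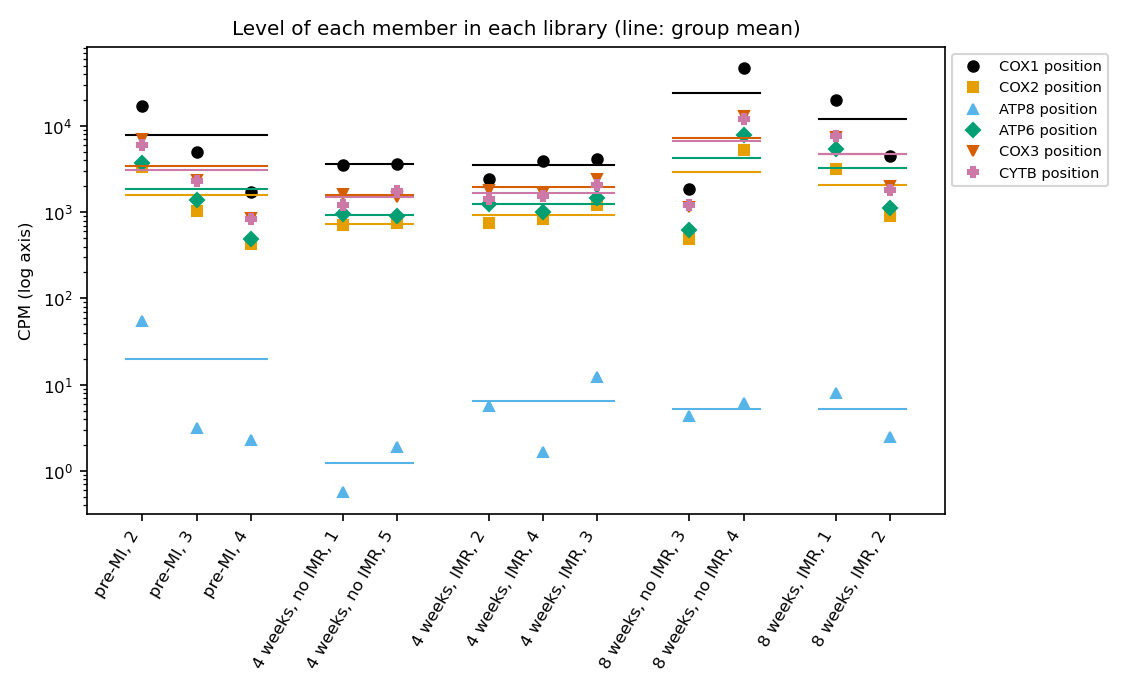
CPM of the 6 members (log axis) in each of the 12 libraries, ordered by group and labelled with the replicate number; points are libraries and horizontal lines are arithmetic group means. The 5 upper members are high together in pre-MI replicate 2, 8-week replicate 4 without IMR and 8-week replicate 1 with IMR, and the ATP8 position lies far below them with 0.562 to 54.5 CPM.

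Whether infarction moved these genes by 4 weeks was asked by setting both 4-week groups, weighted equally, against pre-MI. The log2 fold changes (4 weeks minus pre-MI) were negative for 6 of 6 members. They were -1.15 (SE 0.90) for the COX1 position, -0.94 (SE 0.76) for COX2, -0.97 (SE 0.78) for COX3, -0.95 (SE 0.75) for CYTB, -0.80 (SE 0.79) for ATP6 and -2.82 (SE 1.04) for ATP8. In edgeR's quasi-likelihood test 0 of 6 passed an adjusted p of 0.05 (each adjusted p = 0.927), where 0% of the 14804 genes tested passed. At an unadjusted p under 0.05 in edgeR there was 1 member, the ATP8 position, where 4.74% of genes had such a p. The CPM of the groups overlapped for 6 of 6, where they did not overlap for 4.34% of genes. DESeq2, which gave p-values for 14596 genes, also passed 0 of 6 (0.281% of genes) and had 1 member at an unadjusted p under 0.05 (6.41% of genes). The members' median was -0.96, beside 0.00149 over all genes tested. Without pre-MI replicate 2 the value turned to 0.08 for the COX1 position, 0.18 for COX2, 0.14 for COX3, 0.19 for ATP6 and 0.05 for ATP8, and that of CYTB became -0.00115.

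Eight-week leaflets against pre-MI gave values of the opposite sign for 5 of 6 members. The log2 fold change (8 weeks minus pre-MI) was 1.12 (SE 0.98) for the COX1 position, 0.62 (SE 0.81) for COX2, 0.76 (SE 0.83) for COX3, 0.87 (SE 0.81) for CYTB and 0.99 (SE 0.85) for ATP6. It was -1.94 (SE 1.05) for the ATP8 position. None of the 6 passed in edgeR (each adjusted p = 0.999920; 0% of genes passed), and 0 of 6 had an unadjusted p under 0.05, against 1.93% of genes. The groups overlapped for 6 of 6 members, and did not overlap for 3.59% of genes. DESeq2 passed 0 of 6 (0.0137% of genes) and had 1 member at an unadjusted p under 0.05 (2.71% of genes). Without 8-week replicate 4 without IMR the value became -0.71 for the COX1 position, -0.64 for COX2, -0.54 for COX3, -0.35 for CYTB and -0.38 for ATP6. Without pre-MI replicate 2 that of ATP8 became 0.93. The 4-week and 8-week values above share the pre-MI libraries.

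Between the post-infarction time points the log2 fold changes (8 weeks minus 4 weeks) were positive for 6 of 6 members. They were 2.27 (SE 0.87) for the COX1 position, 1.56 (SE 0.72) for COX2, 1.73 (SE 0.74) for COX3, 1.82 (SE 0.71) for CYTB, 1.79 (SE 0.75) for ATP6 and 0.88 (SE 0.97) for ATP8. In edgeR 0 of 6 passed (adjusted p = 0.676 for 5 members and 0.856 for ATP8; 0% of genes passed). At an unadjusted p under 0.05 in edgeR there were 4 members, the COX1, CYTB, ATP6 and COX3 positions, where 7.20% of genes had such a p. These members vary together between libraries and are not independent. The groups overlapped for 6 of 6, since 8-week replicate 3 without IMR lay below all 4-week libraries for the COX1, COX2, COX3, CYTB and ATP6 positions. The groups did not overlap for 2.04% of genes. DESeq2 gave 5 members at an unadjusted p under 0.05 (9.6% of genes) and 0 past the adjusted threshold (0.158% of genes), with a smallest adjusted p of 0.199. In limma voom, with or without sample quality weights, 0 members had an unadjusted p under 0.05 here or in the other comparisons. The share of all genes with such a p in voom is not given here, so this is not a result about the members. Without 8-week replicate 4 without IMR the values became 0.40 for COX1, 0.26 for COX2, 0.39 for COX3, 0.57 for CYTB and 0.38 for ATP6. That of ATP8 was 0.34 when 8-week replicate 1 with IMR was dropped, and 1.44 when 4-week replicate 5 without IMR was.

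**Figure D2:**
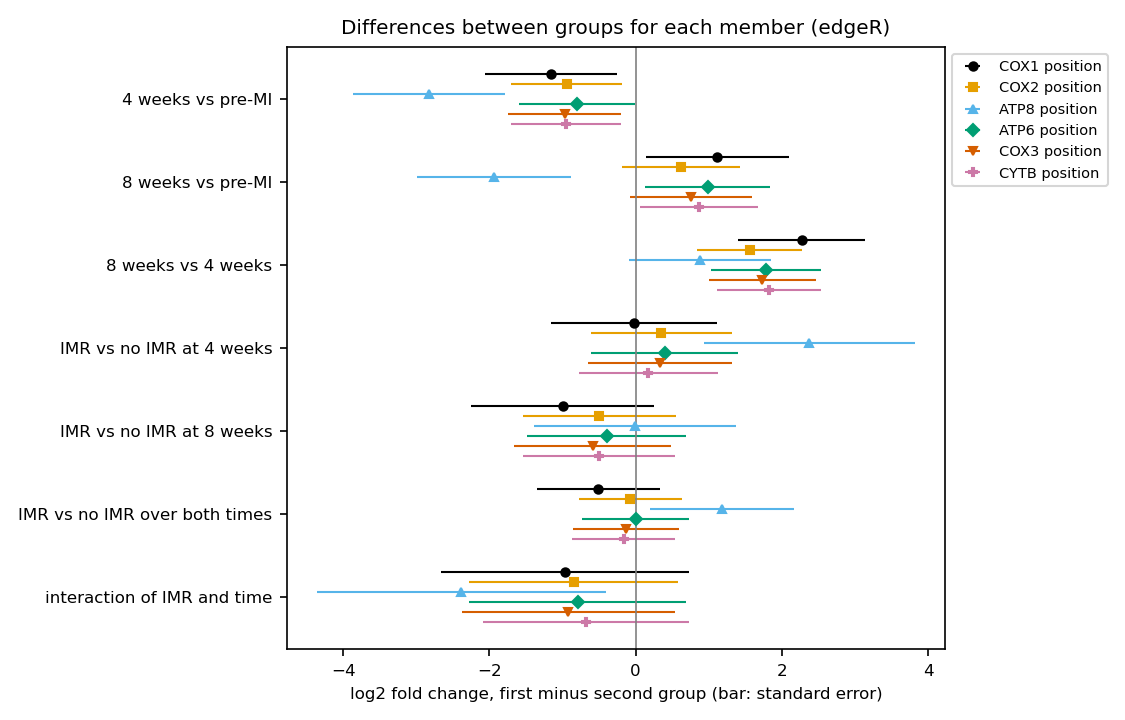
Log2 fold change of each member (x axis, first minus second group; bars are standard errors) in the 7 comparisons, from edgeR over 12 libraries. At 8 weeks against 4 weeks the values lie between 0.88 and 2.27, and none of the points in any comparison passed an adjusted p of 0.05.

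Regurgitation was set against its absence at the same time point. At 4 weeks (3 with and 2 without IMR) the log2 fold change (with minus without) was 2.38 (SE 1.45) for the ATP8 position, and between -0.03 for COX1 and 0.39 for ATP6 in the other 5. The 3 libraries with IMR lay above both without it for the COX2, ATP6 and COX3 positions. That is 3 of 6 members, where the groups did not overlap for 21.4% of genes. These 3 members vary together between libraries and are not independent. The gap was narrow for COX2, with 743 CPM in replicate 5 without IMR and 755 CPM in replicate 2 with IMR. For COX3 it lay between 1644 CPM in replicate 1 without IMR and 1655 CPM in replicate 4 with IMR. Scaled by library totals without TMM factors, the groups overlapped for COX2 and COX3 but not for ATP6. Replicate 5 without IMR had 6658 COX2 and 13344 COX3 counts of 7768007. Replicate 2 with IMR had 8106 and 19492 of 12056543, a smaller share for both. The TMM factors of the libraries without IMR were 0.717 (replicate 1) and 1.15 (replicate 5). The separation for COX2 and COX3 thus depended on the scaling. In edgeR 0 of 6 passed (smallest adjusted p 0.647; 0% of genes passed), and 0 of 6 had an unadjusted p under 0.05, against 7.42% of genes. DESeq2 also passed 0 of 6 (0.0685% of genes), with 1 member at an unadjusted p under 0.05 (9.82% of genes). Dropping replicate 3 with IMR changed the ATP8 value to 1.55, and dropping replicate 5 without IMR changed it to 3.50.

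At 8 weeks (2 with and 2 without IMR) the values ran from -0.997 (SE 1.25) for the COX1 position to -0.01 (SE 1.39) for ATP8. Both libraries with IMR lay between the 2 without it for the 5 members other than ATP8. These 5 members vary together between libraries and are not independent. How many of all genes had this placement was not counted. None of the 6 passed in edgeR (each adjusted p = 1; 0% of genes passed), and 0 of 6 had an unadjusted p under 0.05, against 2.39% of genes. DESeq2 likewise had 0 of 6 by the adjusted threshold (0% of genes) and by the unadjusted one (3.17% of genes). The groups did not overlap for 0 of 6 members and for 25.5% of genes. Leaving out 8-week replicate 4 without IMR turned the COX1 value to 2.64, and leaving out 8-week replicate 1 with IMR moved it to -2.45. The direction at this time point thus changed with the library left out.

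Over both times (5 with and 4 without IMR) the values were -0.51 (SE 0.84) for the COX1 position, 1.18 (SE 0.99) for ATP8 and between -0.16 and -0.00160 for the other 4. In edgeR 0 of 6 passed (smallest adjusted p 0.864; 0% of genes passed), with 0 of 6 at an unadjusted p under 0.05 (5.17% of genes). DESeq2 had 0 of 6 by the adjusted threshold (0% of genes) and 0 of 6 by the unadjusted one (6.68% of genes). The groups overlapped for 6 of 6, and did not overlap for 2.03% of genes. Without 8-week replicate 4 without IMR the COX1 value turned to 1.32. The difference between the IMR effects, 8 weeks minus 4 weeks, ran from -2.39 (SE 1.98) for ATP8 to -0.67 (SE 1.41) for CYTB. As an interaction it passed for 0 of 6 in edgeR (smallest adjusted p 0.955; 0% of genes passed), with 0 of 6 at an unadjusted p under 0.05 (3.35% of genes). DESeq2 had 0 of 6 past either threshold for it, where 0% of genes passed the adjusted and 4.58% the unadjusted one.

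The other protein-coding positions, those of complex I (the ND genes, the first enzyme of the chain), give the context of the same transcripts. Of these 7 positions 6 passed the filter. In edgeR 0 of 6 passed the adjusted threshold in either direction in each of the 7 comparisons, where 0% of genes passed. At 8 weeks against 4 weeks 6 of 6 had an unadjusted p under 0.05 in edgeR, where 7.20% of genes had such a p. In each other comparison 0 of 6 did. These positions vary together with the members between libraries and are not independent of them. Their median log2 fold change was -0.95 at 4 weeks against pre-MI, 0.73 at 8 weeks against pre-MI and 1.65 at 8 weeks against 4 weeks. The medians of the 6 members were -0.96, 0.82 and 1.76 in those comparisons. The 6 members summed to 1.34 to 2.54 times the count of the 7 complex I positions in a library, with a median of 1.55. The highest value was in 8-week replicate 4 without IMR.

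Ratios of counts within a library do not depend on how libraries are scaled. Over the 12 libraries the log2 CPM of the COX1, COX2, COX3, CYTB and ATP6 positions had SDs of 1.15 to 1.46, while the log2 ratios between pairs of them had SDs of 0.114 to 0.382. The median SD over all genes tested was 0.587, and 87.5% of genes had a smaller SD of log2 CPM than the least variable of the 5. In the 10 pairs of these 5 members the log2 CPM correlated over the 12 libraries with Pearson r of 0.974 to 0.996 (permutation p of 1e-05, the smallest possible, to 3e-05; adjusted over 15 pairs at most 4.5e-05) and Spearman rho of 0.895 to 0.993 (permutation p at most 0.00028). Leaving out the 2 libraries farthest from the median left r at 0.933 to 0.992. The values of a pair share the library and its scaling.

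The tightest pair was COX2 with COX3. The COX2 position had 40.3 to 50.9 counts per 100 counts of the COX3 position, with a median of 44.7, although the COX3 level itself spanned a 15.4-fold range. The ATP6 position had 52.4 to 70.9 counts per 100 of COX3, with a median of 59.6. For the CYTB position the range was 74.7 to 118 per 100 of COX3, both ends of it in the 4-week group without IMR. These 3 ratios, which leave out the COX1 position, each stayed within a 1.57-fold range.

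Ratios to the COX1 position had SDs of 0.354 to 0.382 on the log2 scale, against 0.114 to 0.222 for those among the other 4. The COX1 position held 54.8% of the counts of the 6 members in 8-week replicate 4 without IMR, and 31.9% in 4-week replicate 2 with IMR, with a median of 42.9%. Per 100 of its counts, the COX2 position had 11.3 in 8-week replicate 4 without IMR and 30.8 in 4-week replicate 2 with IMR, with a median of 20.5. The COX3 position had 28.2 and 74.1 in those libraries, with a median of 45.7, and ATP6 had 16.9 and 50.4, with a median of 26.99. The CYTB position ranged from 25.9 in 8-week replicate 4 without IMR to 64.1 in 8-week replicate 3 without IMR. These are the 2 animals of a single group.

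**Figure D3:**
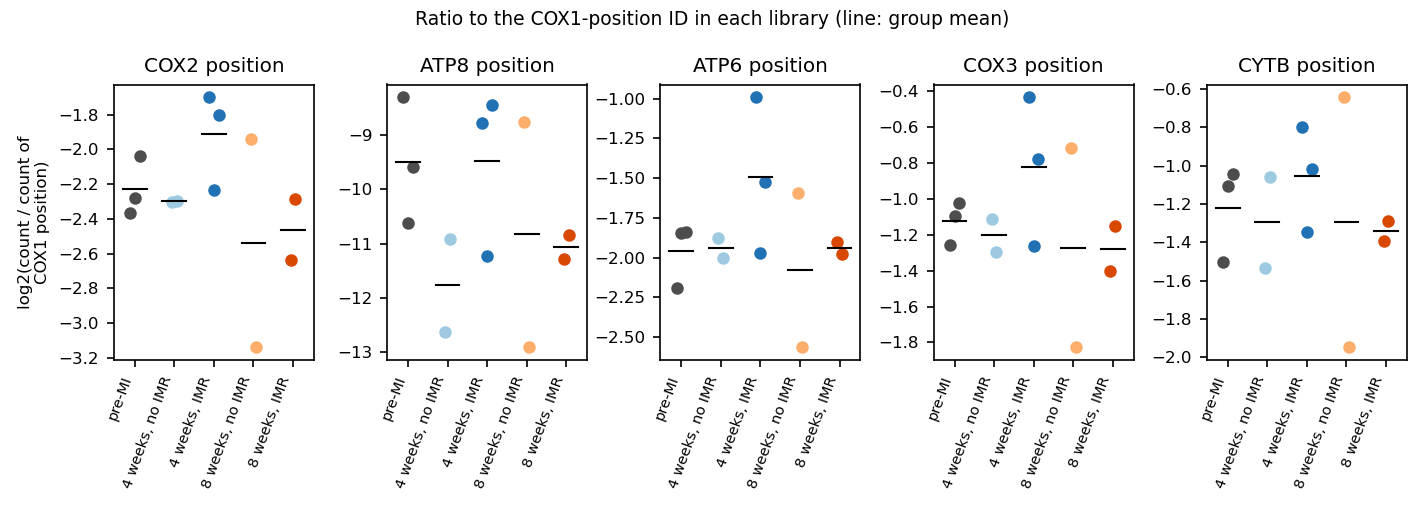
Log2 ratio of each other member's count to that of the COX1 position (y axis, own scale in each panel) for the 12 libraries by group; points are libraries and lines are group means. The groups overlap in each time comparison, and 8-week replicate 4 without IMR is the lowest point in each panel.

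The ratios to the COX1 position were compared between groups with two-sided exact permutation tests, 5 ratios in 4 comparisons, with p-values adjusted over these 20 tests. None passed, with 0 of 20 at an unadjusted p under 0.05 and adjusted p of 0.786 to 0.8286. The smallest exact permutation p possible was 0.0179 at 4 weeks and 0.0286 at 8 weeks against pre-MI. It was 0.00794 at 8 weeks against 4 weeks and 0.0167 for IMR. A lone ratio could therefore not pass after adjustment, however large its difference, so the result does not show that the ratios were stable. The smallest p was that of COX2 at 8 weeks against 4 weeks, where the mean log2 ratio was -2.502 ± 0.51 (SD, n = 4) against -2.07 ± 0.29 (SD, n = 5), a difference of -0.44 (exact permutation p = 0.135, 126 splits, adjusted p = 0.786). The differences at 4 weeks against pre-MI were 0.07 to 0.29 for the 4 members other than ATP8, with exact permutation p of 0.375 to 0.714 for all 5 ratios over 56 splits. At 8 weeks against pre-MI those of the same 4 were -0.27 to -0.05, with exact permutation p of 0.257 to 0.8286 for all 5 ratios over 35 splits. For IMR within time they were 0.10 to 0.29, with exact permutation p of 0.333 to 0.8 for all 5 over 60 splits. For ATP8 the differences were -0.89, -1.45, -0.55 and 1.03 in the 4 comparisons, in the order 4 weeks and 8 weeks against pre-MI, 8 weeks against 4 weeks, and IMR.

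The ratios to the COX1 position were also set against a level that shares no counts with them, the summed CPM of the complex I positions, which ran from 3205 CPM in pre-MI replicate 4 to 33578 CPM in 8-week replicate 4 without IMR. The ratios were lower where that level was higher. They share the COX1 count as denominator, so their p-values are not separate results. The COX1 position also had a wider spread of log2 CPM than COX2, COX3, CYTB and ATP6 (SD 1.46 against 1.15 to 1.23). Over 12 libraries Pearson r was -0.78 for COX2 (permutation p = 0.00129, adjusted p = 0.00645 over 5 relations), -0.71 for CYTB (p = 0.00859, adjusted 0.0145), -0.70 for COX3 (p = 0.00869, adjusted 0.0145) and -0.61 for ATP6 (p = 0.0325, adjusted 0.0407). Spearman rho was -0.67, -0.59, -0.66 and -0.61 in that order (permutation p of 0.0201 to 0.0495, adjusted 0.0556 to 0.0619). For ATP8 r was -0.28 (permutation p = 0.378) and rho -0.24 (p = 0.461). Without the 2 libraries farthest from the median, 8-week replicate 4 without IMR and 8-week replicate 1 with IMR, r was -0.44, -0.50, -0.39 and -0.44 for COX2, CYTB, COX3 and ATP6 (permutation p of 0.145 to 0.26), and 0.28 for ATP8. The relation at the threshold used here therefore rests on those 2 libraries. The labels give no batch within which to repeat it.

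**Figure D4:**
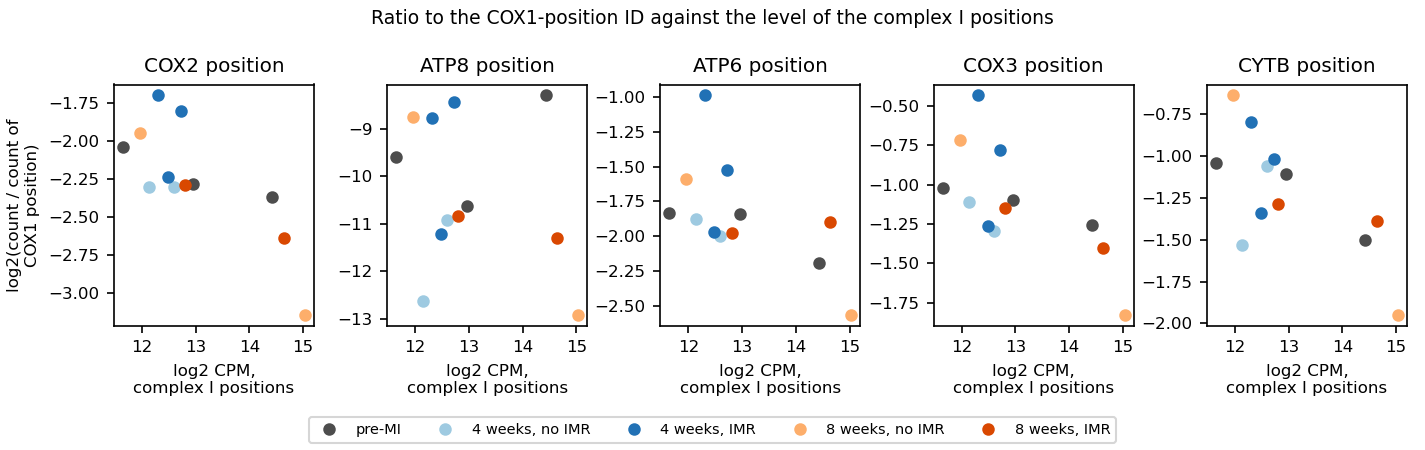
Log2 ratio of each other member's count to that of the COX1 position (y axis, own scale in each panel) against the log2 CPM of the summed complex I positions (x axis), 12 libraries coloured by group. The point at the lower right of each panel is 8-week replicate 4 without IMR, with the highest complex I level and the lowest ratio.

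In counts, the ATP8 position did not keep to the others. Per 100 counts of the ATP6 position it had 1.46 in pre-MI replicate 2, 0.832 in 4-week replicate 3 with IMR and 0.702 in 8-week replicate 3 without IMR. The lowest values were 0.0582 in 4-week replicate 1 without IMR and 0.0767 in 8-week replicate 4 without IMR, which makes a 25.02-fold range. High and low values occurred together in the 8-week group without IMR. The SDs of its log2 ratios to the other 5 members were 1.32 to 1.58, beside an SD of 1.60 for its own log2 CPM. Its log2 CPM correlated with those of the other members with r of 0.496 to 0.615 (permutation p of 0.0334 to 0.105, adjusted 0.0455 to 0.105) and rho of 0.524 to 0.734 (permutation p of 0.0087 to 0.0849). Leaving out the 2 libraries farthest from the median gave r of 0.473 to 0.609. The ATP8 position had only 5 to 780 counts, and ATP8 overlaps ATP6 in the names table. Whether ATP8 RNA itself varied apart from that of ATP6 was not tested.

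By the rule for likeness, the 2 IDs outside the first 37 whose log2 CPM followed the mean log2 CPM of the 6 members most closely over the 12 libraries were ENSOARG00000006907 (r = 0.979) and ENSOARG00000005743 (r = 0.966). The former ran from 6.45 to 330 CPM and the latter from 3.09 to 35.9 CPM. Both were lowest in pre-MI replicate 4 and highest in 8-week replicate 4 without IMR, as were the COX1, COX2, COX3, CYTB and ATP6 positions. Of 14789 IDs compared, 217 had r of at least 0.9 and the median r was 0.00805. The IDs carry no names here.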

How the data were processed

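Poly-A RNA of 12 leaflets was sequenced, and the authors deposited raw counts per Ensembl sheep gene ID, 1 column per animal. The submitters' processing notes name Bowtie2 2.2.3, TopHat2 2.0.12 and HTSeq 0.6.1; the genome build, annotation, strand setting and handling of shared reads are not given in the sources used here. Of 25197 IDs 4854 had 0 counts throughout. The names table matched 0 IDs. The labels give the groups; the series text counts 13 animals, while its group sizes and the libraries come to 12. No label gives a batch.

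Counts of all genes past filterByExpr (14804 genes, 99.95% of counts) were fitted in edgeR 4.0.16 (R 4.3.3; TMM factors, robust quasi-likelihood, 5 groups, 7 residual degrees of freedom, biological coefficient of variation 0.535). Adjusted p-values are Benjamini-Hochberg over all genes within a comparison, called at 0.05. Log2 CPM used a prior count of 2. Alternatives were DESeq2 1.42.0, limma 3.58.1 voom, other scalings, filters, groups and left-out libraries. The fit was tested on simulated data. Correlations used 100000 permutations and were chosen after the values were seen. Each pair of libraries differed beyond counting noise (chi-square per degree of freedom at least 44.9). Members, lists and tests were chosen with earlier results of these data known; named genes were the 6 members and the 2 IDs most like them. Intervals cover counting error only. Same-numbered libraries deviated together with r of -0.0613 on average over 10 pairs (3 over 0.1), and were not treated as pairs.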

Additional observations from a re-analysis of the deposited data

Results flagged for a closer look

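Single libraries far from the rest of their time group were sought with Dixon's test at its 95% critical value, which divides the distance between an extreme value and its neighbour by the range. The check covered the CPM of each member, the 5 ratios to the COX1 position and the share of counts in the 6 members, at 4 and at 8 weeks, 24 groups of values in all, where chance gives about 1.2. One stood out, the level of ENSOARG00000000019 (COX2 position) at 4 weeks. Replicate 3 with IMR had 1204 CPM there, and the other 4 libraries lay between 720 and 842 CPM (distance over range 0.748, critical value 0.71). The 3 libraries before MI were outside this check. For the ATP8 position they had 54.5, 3.18 and 2.27 CPM in replicates 2, 3 and 4.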

How the results depend on the processing

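No member passed an adjusted p of 0.05 in any comparison, setting or left-out library; the smallest adjusted p over 786 other values was 0.199. Of 520 values under other settings 487 kept their direction and 33 changed sign. Of 486 values with 1 library left out 429 kept their direction and 57 did not. These values are the members' log2 fold changes and ratio differences, and counts of genes called are not among them. The cause of the changes was not tested. Over all genes, DESeq2 called 41 at 4 weeks against pre-MI, 2 at 8 weeks against pre-MI, 23 at 8 against 4 weeks and 10 for IMR at 4 weeks, where edgeR called 0. With 1 library left out, edgeR called 0 to 1 at 8 against 4 weeks (1 when 4-week replicate 4 with IMR was dropped) and 0 to 4 for IMR at 4 weeks (4 without 4-week replicate 5 without IMR). A lone library left in a group was assumed to vary like the other groups.

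Values that changed sign are log2 fold changes, by position. With limma voom and sample quality weights they were 0.11 (COX2), 0.22 (ATP6) and 0.13 (COX3) at 4 weeks against pre-MI, 0.26 (ATP8) at 8 weeks against pre-MI, 0.057 (ATP6) for IMR at 8 weeks, and 0.21 (COX2), 0.28 (ATP6), 0.18 (COX3) and 0.068 (CYTB) for IMR over both times. Without weights they were 0.072 (COX2) and 0.14 (ATP6) for IMR at 8 weeks, 0.20 (COX2), 0.26 (ATP6), 0.15 (COX3) and 0.067 (CYTB) for IMR over both times and 0.055 (COX1) for the interaction. With library totals they were 0.046 (COX1) for IMR at 4 weeks, 0.11 (ATP8) for IMR at 8 weeks, and 0.023 (COX2) and 0.093 (ATP6) for IMR over both times. Without a filter ATP6 had 0.00018 for IMR over both times, and a filter at a mean CPM of 5 gave it 0.013, and gave ATP8 0.00459 for IMR at 8 weeks. With the replicate number as a block, COX1 had 2.95 for IMR at 4 weeks. COX2, ATP6, COX3 and CYTB then had 0.26, 0.30, 0.13 and 0.32 for IMR over both times. No label says that the numbers pair the animals, and the fit with the block passed 0 of 6 members. That fit called 0 genes at 4 and at 8 weeks against pre-MI and at 8 against 4 weeks. With the 6 members' sum as denominator, the ratio differences were -0.029 (CYTB, 4 weeks against pre-MI), 0.011 (ATP6, 8 weeks against pre-MI) and -0.00135 (CYTB, IMR), and with medians -0.035 (ATP6) and -0.016 (COX3) at 4 weeks against pre-MI.

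Leaving out 1 library gave these ranges where a sign changed. At 4 weeks against pre-MI they were -1.63 to 0.081 (COX1), -1.40 to 0.18 (COX2), -3.38 to 0.046 (ATP8), -1.25 to 0.19 (ATP6) and -1.43 to 0.14 (COX3). At 8 weeks against pre-MI they were -0.71 to 2.35 (COX1), -0.64 to 1.75 (COX2), -2.48 to 0.93 (ATP8), -0.38 to 1.98 (ATP6), -0.54 to 1.87 (COX3) and -0.35 to 1.82 (CYTB). For IMR at 4 weeks they were -0.14 to 0.21 (COX1) and -0.065 to 0.45 (CYTB). For IMR at 8 weeks they were -2.45 to 2.64 (COX1), -1.66 to 2.02 (COX2), -1.09 to 0.61 (ATP8), -1.91 to 2.32 (ATP6), -1.83 to 2.00 (COX3) and -1.87 to 1.91 (CYTB). For IMR over both times they were -1.24 to 1.32 (COX1), -0.66 to 1.20 (COX2), -0.76 to 1.37 (ATP6), -0.75 to 1.18 (COX3) and -0.85 to 1.05 (CYTB). For the interaction they were -2.42 to 2.64 (COX1), -2.02 to 1.64 (COX2), -2.30 to 1.90 (ATP6), -2.16 to 1.64 (COX3) and -2.04 to 1.72 (CYTB). Ratio differences ranged from -0.074 to 0.16 (CYTB) at 4 weeks against pre-MI; from -0.19 to 0.14 (ATP6), -0.33 to 0.036 (COX3) and -0.32 to 0.11 (CYTB) at 8 weeks against pre-MI; from -1.28 to 0.11 (ATP8) and -0.39 to 0.043 (CYTB) at 8 against 4 weeks; and from -0.066 to 0.53 (COX2), -0.012 to 2.07 (ATP8), -0.091 to 0.46 (COX3) and -0.23 to 0.43 (CYTB) for IMR. Without a change of sign, the ATP8 position ranged from 0.65 to 1.74 for IMR over both times and from -3.50 to -1.57 for the interaction. Depth limits the ATP8 position, with 5 to 780 counts.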

Other observations

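Among the first 37 IDs, the rows at the ribosomal RNA places also varied between libraries. Their log2 CPM correlated with the mean log2 CPM of the members at r = 0.776 (position 2) and r = 0.824 (position 4) over the 12 libraries, against 0.893 to 0.985 for the 6 complex I positions past the filter; the values share each library's scaling. At 8 weeks against 4 weeks the log2 fold changes of the 2 ribosomal positions were 0.35 and 0.62. In edgeR 0 of 2 passed (smallest adjusted p 0.837), where 0% of genes passed. At 4 weeks against pre-MI the log2 fold changes were -0.04 and 0.19. Whether these values differ from those of the members was not tested.

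Position 37 was the only one of the 22 transfer RNA places with any count. It had 99 to 13901 counts per library, and its log2 CPM correlated with the mean of the 6 members at r = 0.854 over the 12 libraries.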
